A study of Mus musculus with 4 samples.

Results

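The ligands of the tumor necrosis factor (TNF) superfamily were measured as RNA in activated lung group 2 innate lymphoid cells (ILC2s), lymphocytes without antigen receptors that answer the epithelial cytokine IL-33 with type 2 cytokines. The group was defined by name as 10 genes (Tnf, Lta, Ltb, Tnfsf8, Tnfsf10, Tnfsf11, Tnfsf13b, Tnfsf14, Cd40lg and Fasl), and all 10 were found by gene symbol among the 22558 genes of the deposited count table. The 2 WT libraries came from C57BL/6 mice and the other 2 from mice labelled ICAM-1 KO, described in the methods as the B6.129S4-Icam1 tm1Jcgr strain and labelled with the background strain C57BL/6. All mice were 6 weeks old by their labels and received 3 intranasal doses of 0.5 µg rmIL-33. Lungs were taken on day 4, ILC2s were sorted as CD45+ Lin- ST2+ CD127+ cells, and each library held cells pooled from 4 mice. No unchallenged or IL-33-free library was analysed here, so every level is that of challenged mice.

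Ligands of this family are made as trimers, most of them anchored in the membrane, and bind receptors that recruit TRAF adaptors to switch on NF-kappaB or, for receptors with a death domain, caspases. Lymphocytes use them to talk to their neighbours: TNF and the lymphotoxins act on stroma and myeloid cells, CD40L and BAFF on B cells, RANKL on cells of the myeloid lineage, and FasL and TRAIL on cells that are to die. ILC2s are known to carry several of these ligands, among them OX40L and RANKL.

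The libraries held 24796148 to 28782471 counts on genes. Icam1, the targeted gene, was counted 2579 and 2630 times in WT against 2812 and 3453 times in the other libraries, so its RNA was not lower there (log2 fold change 0.33, SE 0.108, edgeR adjusted p = 0.0745). The counts are summed over the gene and do not show which exons were read. The paper reports that its ICAM-1-deficient mice lack the protein, measured by flow cytometry on lung ILC2s of IL-33-challenged mice. The counts cannot show this, so the samples are named here by their label only, as KO-labelled libraries. Each of 12 ILC2 marker genes was detected in every library, and their summed normalized count was 7300 and 7710 in WT and 6430 and 6480 in the KO-labelled libraries. Marker genes of other lung cells were also counted and are given beside some of the ligands and receptors.

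Of the 10 ligands, Fasl and Cd40lg were higher and Tnfsf11 was lower in the KO-labelled libraries, by the quasi-likelihood test of edgeR at an adjusted p under 0.05 (Benjamini-Hochberg, over all 11711 genes tested). Fasl had 3.08-fold and Cd40lg 2.05-fold the WT mean, and Tnfsf11 was 1.59-fold higher in WT. The other 6 ligands tested did not pass, and Tnfsf13b was too rare to be tested. Following the study's methods, a gene was tested where its normalized count averaged 1 or more and summed to 10 or more over the libraries. A normalized count is the deposited value, the count plus 1 scaled to give every library the same upper quartile.

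Across all genes tested, 8.8% were higher and 4.97% were lower in the KO-labelled libraries at this threshold, against 2 and 1 of the 9 ligands tested. With a change of at least 2-fold as a further limit, 4.94% of all genes were higher and 0.538% lower, and the ligands past both limits were Fasl and Cd40lg. The ligands' median log2 fold change was 0.05, and that of all genes tested was 0.01. For 6 of the 9 ligands the libraries of the different labels did not overlap, which held for 59.5% of all genes tested. With 9 genes, these shares are a description of the family and do not set it apart from other genes.

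The genomic sequence before the transcription start is shown for Fasl and Tnfsf11, the called ligands with an entry among the RefSeq promoters used here, and for Tnf, the founder of the family, whose groups overlapped. Each run is the 250 bases directly upstream of the RefSeq start in GRCm38.p6, the assembly behind mm10, written 5′ to 3′ on the strand of the gene. Of the 10 ligands, 9 had an entry, and Cd40lg had none. Fasl lies at chr1:161788496-161788745 (minus strand), Tnfsf11 at chr14:78308044-78308293 (minus strand) and Tnf at chr17:35202008-35202257 (minus strand). Capitals mark matches, on either strand, to 4 motifs: the NFAT core TGGAAA, the AP-1 site TGANTCA, the TATA box TATAAA and the NF-kappaB consensus.
Fasl: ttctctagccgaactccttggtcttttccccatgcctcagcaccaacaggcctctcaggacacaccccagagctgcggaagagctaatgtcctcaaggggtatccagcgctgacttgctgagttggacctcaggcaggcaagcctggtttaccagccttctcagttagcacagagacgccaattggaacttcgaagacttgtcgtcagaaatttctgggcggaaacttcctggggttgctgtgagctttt
Tnfsf11: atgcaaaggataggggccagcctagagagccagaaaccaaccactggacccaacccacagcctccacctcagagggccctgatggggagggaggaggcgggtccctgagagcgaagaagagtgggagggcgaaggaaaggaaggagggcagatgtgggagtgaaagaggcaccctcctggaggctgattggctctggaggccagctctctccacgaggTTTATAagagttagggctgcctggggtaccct
Tnf: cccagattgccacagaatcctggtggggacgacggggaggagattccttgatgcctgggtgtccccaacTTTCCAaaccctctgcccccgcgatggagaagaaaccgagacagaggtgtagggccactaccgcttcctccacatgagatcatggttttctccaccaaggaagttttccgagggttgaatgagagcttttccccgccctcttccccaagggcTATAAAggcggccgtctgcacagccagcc

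The Tnf window held a TATA box 29 to 24 bases before the start and, on the opposite strand, an NFAT core 181 to 176 bases before it. The Tnfsf11 window held the TATA box letters on the strand opposite to the gene, 32 to 27 bases before the start. The Fasl window held no match to any of the 4 motifs. No 2 of these motifs overlapped in the windows shown. Over 32536 windows of the same length, the NFAT core was found in 18.6%, the TATA box in 12.3%, the NF-kappaB consensus in 7.28% and the AP-1 site in 6.73%. These matches describe letters and say nothing of whether a factor was bound.

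Levels were compared between ligands after division by the merged exon length, in normalized counts per kb. Ltb, which encodes lymphotoxin beta, stood highest in every library, at 97.2 and 71.3 in WT and 80.5 and 90.9 in the KO-labelled libraries. Tnfsf11, which encodes RANKL, came next in every library, at 45.1 and 55.4 in WT and 31.0 and 32.2 in the KO-labelled libraries. Together these genes made up 75.7% and 71.6% of the summed level of the 10 ligands in WT, and 66% and 68.8% in the KO-labelled libraries.

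Below them, the WT order was Tnfsf10 (15.3 ± 0.729 per kb, SD, n = 2 libraries), Tnfsf8 (10.9 ± 2.01), Tnfsf14 (7.86 ± 0.566), Cd40lg (5.41 ± 1.6), Lta (3.83 ± 1.13), Tnf (3.17 ± 1.64), Fasl (1.34 ± 0.0394) and Tnfsf13b (0.259 ± 0.00764). Cd40lg, Lta and Tnf followed each other by less than their spread, and Tnf stood above both others in WT replicate 1 and below them in WT replicate 2. The order of all other ligands was the same in both WT libraries. In the KO-labelled libraries, Tnfsf8 (15.0 ± 0.957) and Tnfsf10 (13.1 ± 2.11) lay within their spread of each other. Cd40lg (11.1 ± 0.813) stood above Tnfsf14 (5.67 ± 0.75) there, and Fasl (4.11 ± 0.0661) and Tnf (4.21 ± 0.261) lay together above Lta (3.25 ± 0.163).

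The summed level of the 10 ligands per kb was 188 and 177 in WT and 169 and 179 in the KO-labelled libraries, so the groups overlapped in the sum. Tnfsf11 gave 24% and 31.3% of the sum in WT and 18.4% and 18% in the KO-labelled libraries. Cd40lg gave 2.28% and 3.69% in WT and 6.22% and 6.54% in the KO-labelled libraries, and Fasl 0.723% and 0.74% against 2.41% and 2.32%. Shares of a common sum depend on each other, and no test was run on them.

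**Figure D1:**
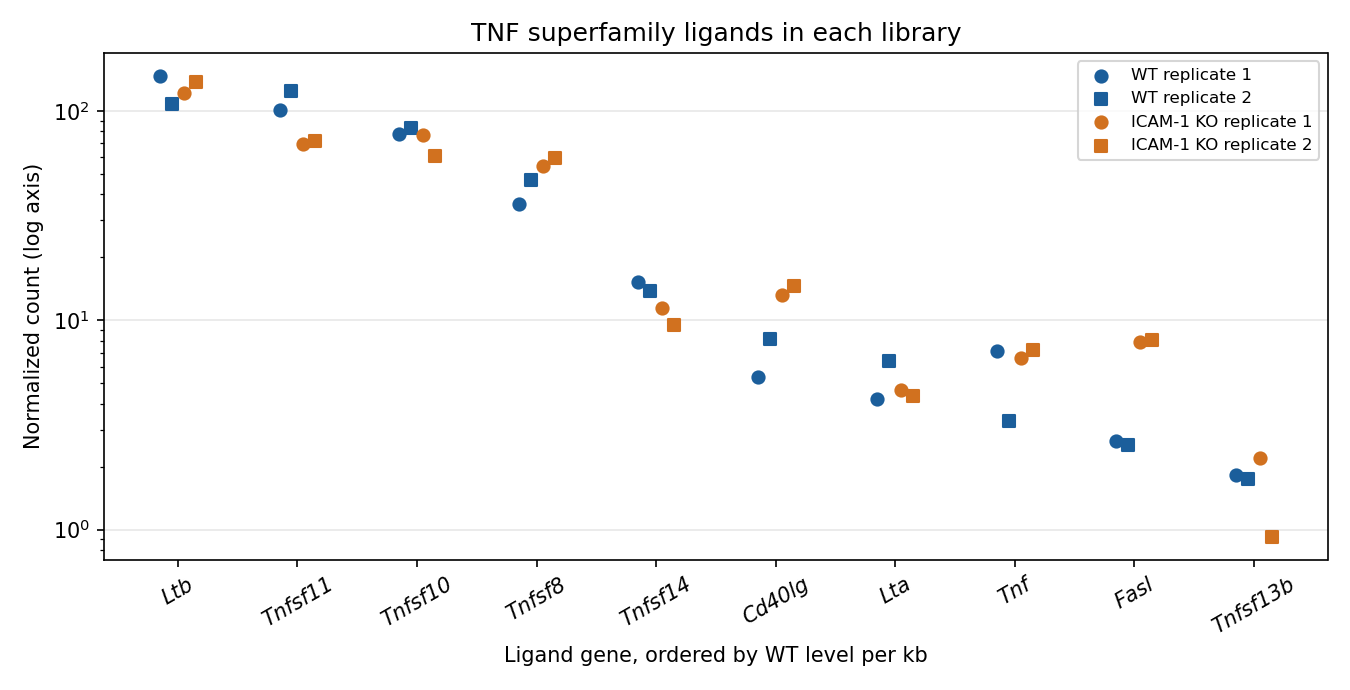
Normalized count (log axis) of the 10 ligand genes in each of the 4 libraries, blue for WT and orange for the KO-labelled libraries, ordered from left to right by WT level per kb. Both orange points lie above both blue points for Cd40lg, Fasl and Tnfsf8. They lie below them for Tnfsf11, Tnfsf14 and, narrowly, Tnfsf10, while those of Ltb, Lta, Tnf and Tnfsf13b overlap.

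**Figure D2:**
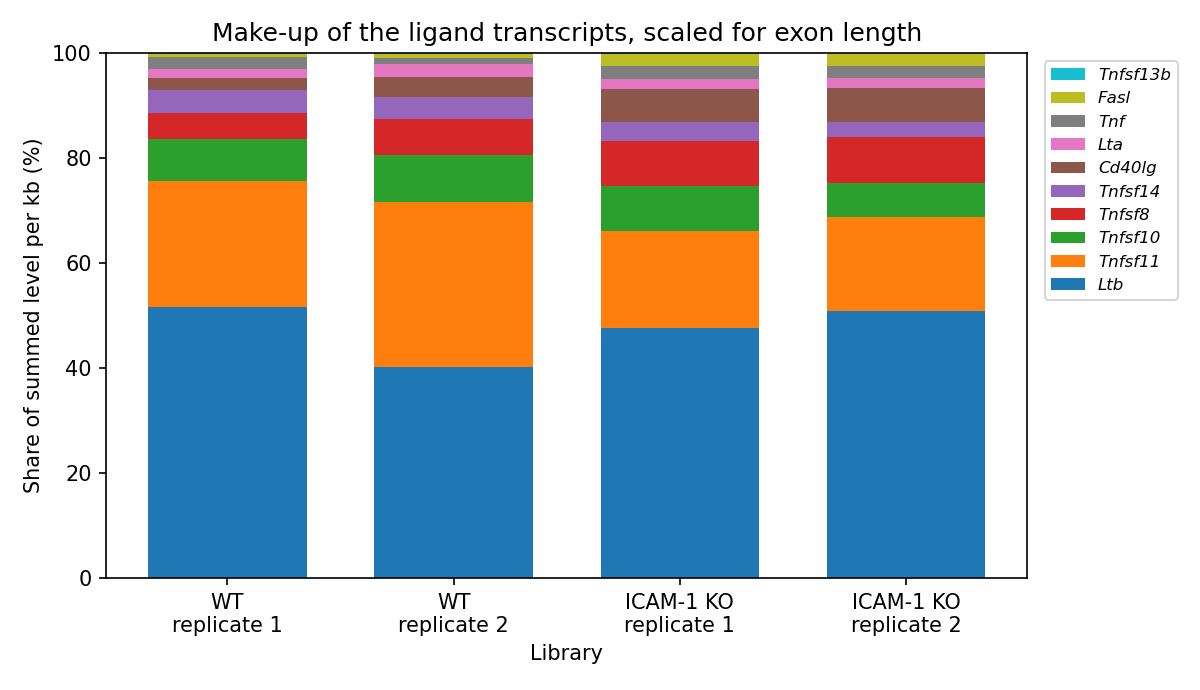
Share of each ligand (%) in the summed normalized count per kb of the 10 ligands, 1 bar per library. Ltb takes 40.3% to 51.7% of each bar, and the part of Tnfsf11 is 24% and 31.3% in WT and 18.4% and 18% in the KO-labelled libraries.

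Fasl encodes Fas ligand, a membrane protein of cytotoxic lymphocytes that kills cells bearing Fas, and lies at chr1:161780689-161788495 on the minus strand of mm10. It had 79 counts in each WT library, and 226 and 252 counts in the KO-labelled libraries. Its normalized count was 2.64 and 2.53 in WT and 7.88 and 8.06 in the KO-labelled libraries. Both groups were tight and did not overlap, with the replicates of a group differing by 1.04-fold and 1.02-fold at most. On the log2 scale the difference was 1.66 (SE 0.335, edgeR, adjusted p = 0.0147), the largest among the 9 ligands tested. It kept its size with each library left out in turn, at 1.63 to 1.69, but the adjusted p was then 0.0606 without WT replicate 1 and 0.068 without WT replicate 2. In a bulk sample, more cells of a type and more RNA per cell cannot be told apart.

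Cd40lg encodes CD40 ligand, by which helper lymphocytes stimulate B cells and dendritic cells through CD40, and lies at chrX:57212143-57224042 (plus strand). Its counts were 161 and 257 in WT against 378 and 457 in the KO-labelled libraries. Its normalized count was 5.35 and 8.17 in WT and 13.2 and 14.6 in the KO-labelled libraries. The groups did not overlap, although the WT libraries were 1.53-fold apart. Its fold change on the log2 scale was 1.06 (SE 0.28, edgeR, adjusted p = 0.0376). This call was lost with 1 library left out: the adjusted p was 0.152 without WT replicate 1 (log2 fold change 0.79), 0.0509 without WT replicate 2 (1.41) and 0.102 without ICAM-1 KO replicate 2 (0.98). It was 0.102 with rare genes left in and 0.0562 with edgeR's older test.

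Fasl and Cd40lg are both known as genes of activated T cells, which the sort aimed to leave out with antibodies to CD3ε, CD4, CD5 and the T cell receptors. A list of 10 T cell markers had a summed normalized count of 364 and 492 in WT and 800 and 979 in the KO-labelled libraries. Of these markers 6 were higher and 0 lower by the same test (1 lower, Cd3g, at an unadjusted p under 0.05, and 0 lower by DESeq2 or limma), with a median log2 fold change of 1.52. The 6 were Cd3d, Trac, Cd4, Foxp3, Cd28 and Cd5, with log2 fold changes of 1.49 to 1.84. The other 4 did not pass: Cd247 (0.72, adjusted p = 0.0995, groups not overlapping), Cd3e (0.17, adjusted p = 0.69), Cd3g (-0.33, adjusted p = 0.158) and Cd8a (-0.04, adjusted p = 0.962). DESeq2 called 7 higher and limma 6. Of all genes tested, edgeR called 8.8% higher and 4.97% lower. No marker of this list was at 0 in any library.

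FasL is also a product of NK cells. Of the 8 markers of NK cells and ILC1s, 5 were tested and 2 of them, Klrb1c and Klrk1, were higher (log2 fold changes 1.52 and 1.45). Their summed normalized count was 22.2 and 35.5 in WT and 52.4 and 43.3 in the KO-labelled libraries. Ncr1, a receptor gene of NK cells, ILC1s and some ILC3s, had 87 and 37 counts in WT against 57 and 40 in the KO-labelled libraries, and Prf1, the perforin gene, had 80 and 96 against 206 and 59. Of the markers tested for other cells, 4 of 6 were higher for B cells, 7 of 9 for macrophages, monocytes and dendritic cells, 4 of 5 for neutrophils, 4 of 5 for alveolar epithelium, 6 of 6 for endothelium, 1 of 4 for ILC3s and 0 of 4 for fibroblasts (1 of 4 at an unadjusted p under 0.05, and 0 by DESeq2 or limma). The summed levels of these lists did not overlap between the labels, except that of fibroblasts. Among all genes tested, 8.8% were higher, and 59.5% had libraries that did not overlap between the labels. The ILC3 sum was 25.3 and 33.3 in WT and 55.6 and 62.8 in the KO-labelled libraries, the neutrophil sum 58.0 and 57.3 against 159 and 120, and the alveolar sum 72.4 and 37.0 against 402 and 832. The part of any of these cells in the levels of Fasl and Cd40lg was not tested.

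**Figure D3:**
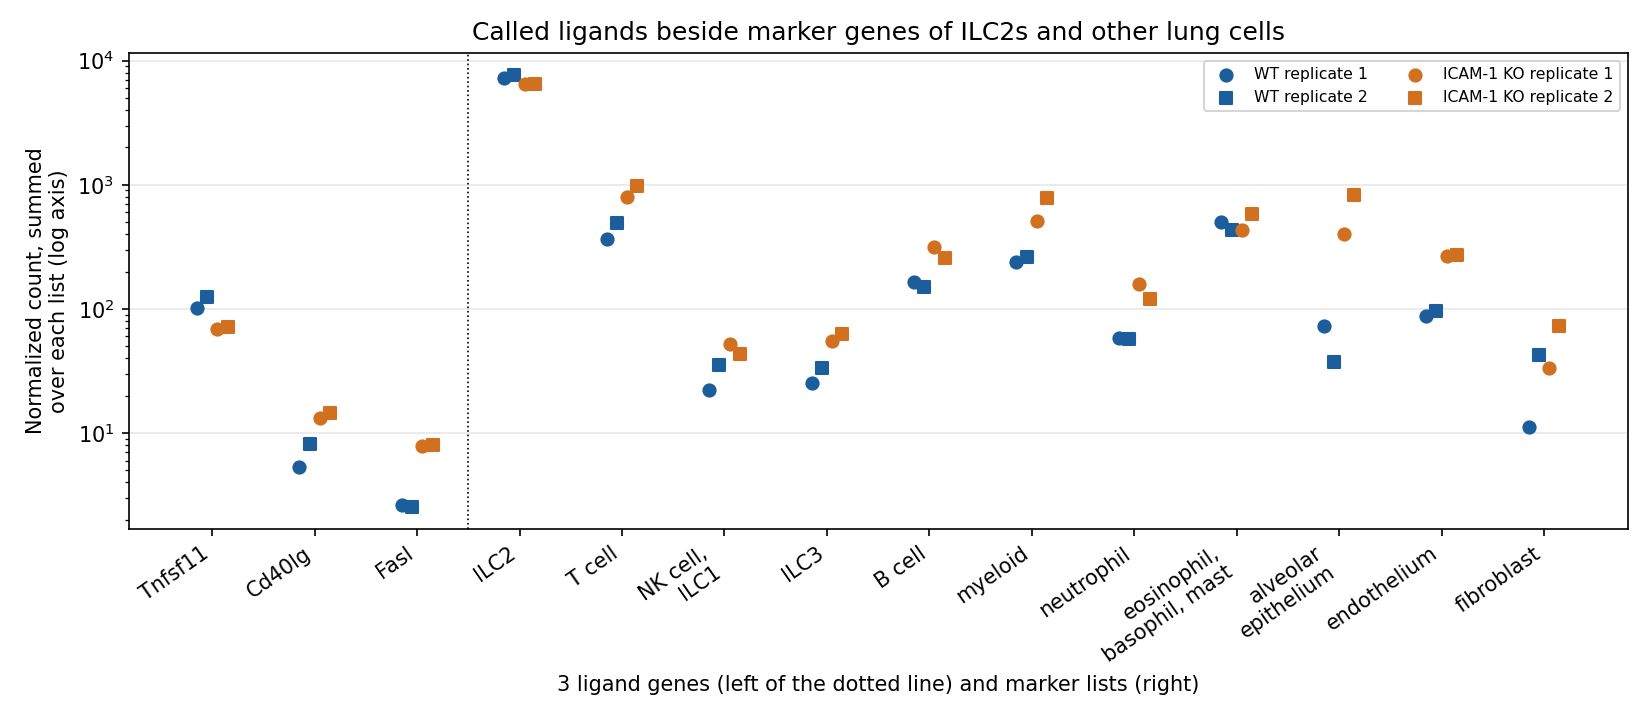
Normalized count (log axis) of Tnfsf11, Cd40lg and Fasl (left of the dotted line) and the normalized count summed over each marker list (right) in the 4 libraries, blue for WT and orange for the KO-labelled libraries. The T cell list lies at 364 and 492 in WT and at 800 and 979 in the KO-labelled libraries, and the ILC2 list at 7300 and 7710 and at 6430 and 6480.

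Tnfsf11 encodes RANKL, the ligand of RANK that drives the formation of osteoclasts and acts on myeloid and epithelial cells, and lies at chr14:78277445-78308043 on the minus strand. It had 3056 and 3913 counts in WT against 1993 and 2258 in the KO-labelled libraries. Its normalized count was 101 and 124 in WT and 69.2 and 72.0 in the KO-labelled libraries. Both KO-labelled libraries lay below both WT libraries, and the groups did not overlap. This is a log2 fold change of -0.64 (SE 0.123, edgeR, adjusted p = 0.0119). Leaving out each library gave -0.79 to -0.49, and the adjusted p was 0.0632 without WT replicate 2 and 0.0532 without a filter on low counts. Among the 12 ILC2 markers, 4 were lower by the same test (Il5, Il13, Il2ra and Arg1) and 2 were higher (Klrg1 and Ptprc). Among all genes tested, 4.97% were lower and 8.8% higher. The other 6 markers (Gata3, Il1rl1, Il7r, Rora, Thy1 and Areg) did not pass, and the median log2 fold change over the 12 genes was -0.1. Eosinophil granule genes were lower as well. Epx, the eosinophil peroxidase gene, had 1027 and 739 counts in WT and was at 0 in both KO-labelled libraries (adjusted p = 0.000416), and Prg2, the major basic protein gene, had 1583 and 1041 counts against 33 and 118 (log2 fold change -4.06, adjusted p = 0.000711). In the same list of 6 eosinophil, basophil and mast cell markers, of which 5 were tested, Ccr3 was higher (log2 fold change 1.6, adjusted p = 0.0192), Mcpt8 and Cpa3 did not pass, and the summed normalized count overlapped (498 and 431 in WT, 433 and 577 in the KO-labelled libraries). The part of these cells in the level of Tnfsf11 was not tested.

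The lymphotoxin and TNF genes lie side by side on chromosome 17, with 3060 bases between Ltb and Tnf and 1157 between Tnf and Lta. None of them passed the test, and none had groups that did not overlap. Ltb, a membrane-bound subunit that joins lymphotoxin alpha in a trimer, lies at chr17:35194439-35196320 (plus strand). Its counts were 4461 and 3414 in WT against 3515 and 4326 in the KO-labelled libraries. Its normalized count was 147 and 108 in WT and 122 and 138 in the KO-labelled libraries, so both of the latter fell between the WT libraries. As a log2 fold change this came to 0.05 (SE 0.146, adjusted p = 0.845), and its sign turned with the library left out, from -0.15 without WT replicate 2 to 0.29 without WT replicate 1.

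Tnf, the gene of TNF itself, lies at chr17:35199381-35202007 on the minus strand. It had 214 counts in WT replicate 1 and 103 in WT replicate 2, with exact Poisson intervals (95%, counting error only) of 186 to 245 and 84.1 to 125. In the KO-labelled libraries it had 189 and 225 counts. The normalized counts were 7.1 and 3.29 in WT and 6.59 and 7.2 in the KO-labelled libraries. WT replicate 2 was the low library, 2.16-fold under the other WT library, and the remaining 3 libraries lay close together. The difference came to 0.45 in log2 units (SE 0.386, edgeR, adjusted p = 0.476). It was -0.01 without WT replicate 2 and 1.1 without WT replicate 1 (adjusted p = 0.149), so the difference rested on that library.

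Lta, which encodes the secreted lymphotoxin alpha, lies at chr17:35203165-35205351 on the minus strand. It had 126 and 201 counts in WT against 133 and 135 in the KO-labelled libraries. The normalized counts were 4.19 and 6.4 in WT and 4.65 and 4.33 in the KO-labelled libraries. WT replicate 2 was high for Lta and low for its neighbour Tnf. The log2 fold change of Lta was -0.22 (SE 0.356, adjusted p = 0.728), and it was 0.13 without WT replicate 2.

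Tnfsf14 encodes LIGHT, which shares the lymphotoxin beta receptor with lymphotoxin and also binds HVEM, and lies apart on the same chromosome at chr17:57189492-57194177, minus strand. It had 461 and 434 counts in WT against 329 and 297 in the KO-labelled libraries. The normalized counts were 15.3 and 13.8 in WT and 11.5 and 9.49 in the KO-labelled libraries. Both KO-labelled libraries lay under WT without passing the test (log2 fold change -0.45, SE 0.232, adjusted p = 0.231).

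Tnfsf8 encodes CD30 ligand, a costimulatory ligand of T cells and other leukocytes, and lies at chr4:63831308-63861347 on the minus strand. It had 1087 and 1475 counts in WT against 1567 and 1869 in the KO-labelled libraries. The normalized counts were 35.9 and 46.7 in WT and 54.4 and 59.6 in the KO-labelled libraries, groups that did not overlap. In log2 units the difference was 0.49 (SE 0.153), and the adjusted p of 0.0642 from edgeR's quasi-likelihood test missed the threshold. It passed with DESeq2 (adjusted p = 0.0326) and without WT replicate 2 (0.0488, log2 fold change 0.69). It did not pass without WT replicate 1 (0.24, log2 fold change 0.31), without ICAM-1 KO replicate 1 (0.0552, 0.56) or without ICAM-1 KO replicate 2 (0.186, 0.41).

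Tnfsf10 encodes TRAIL, a ligand that can start apoptosis through a death receptor, and lies at chr3:27317028-27342427 (plus strand). Its counts were 2358 and 2630 in WT against 2216 and 1920 in the KO-labelled libraries. The normalized counts were 77.9 and 83.3 in WT and 77.0 and 61.2 in the KO-labelled libraries. The lowest WT library and the highest KO-labelled library almost met. Expressed as a log2 fold change, the difference was -0.2 (SE 0.128, adjusted p = 0.336). It was -0.05 without ICAM-1 KO replicate 2 (adjusted p = 0.888) and -0.36 without ICAM-1 KO replicate 1 (0.17).

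Tnfsf13b encodes BAFF, a survival factor of B cells made mainly by myeloid and stromal cells, and lies at chr8:10006467-10039072 on the plus strand. It was the rarest of the 10, with 54 counts in each WT library and 62 and 28 counts in the KO-labelled libraries. Its normalized counts of 1.82 and 1.74 in WT and of 2.19 and 0.924 in the KO-labelled libraries summed to less than 10, and it was left out of the test. The KO-labelled libraries stood on either side of WT and were 2.37-fold apart. Markers of macrophages, monocytes and dendritic cells had a summed normalized count of 240 and 260 in WT and 514 and 778 in the KO-labelled libraries. Of those tested, 7 of 9 were higher, beside 8.8% of all genes tested. The part of these cells in the level of Tnfsf13b was not tested.

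**Figure D4:**
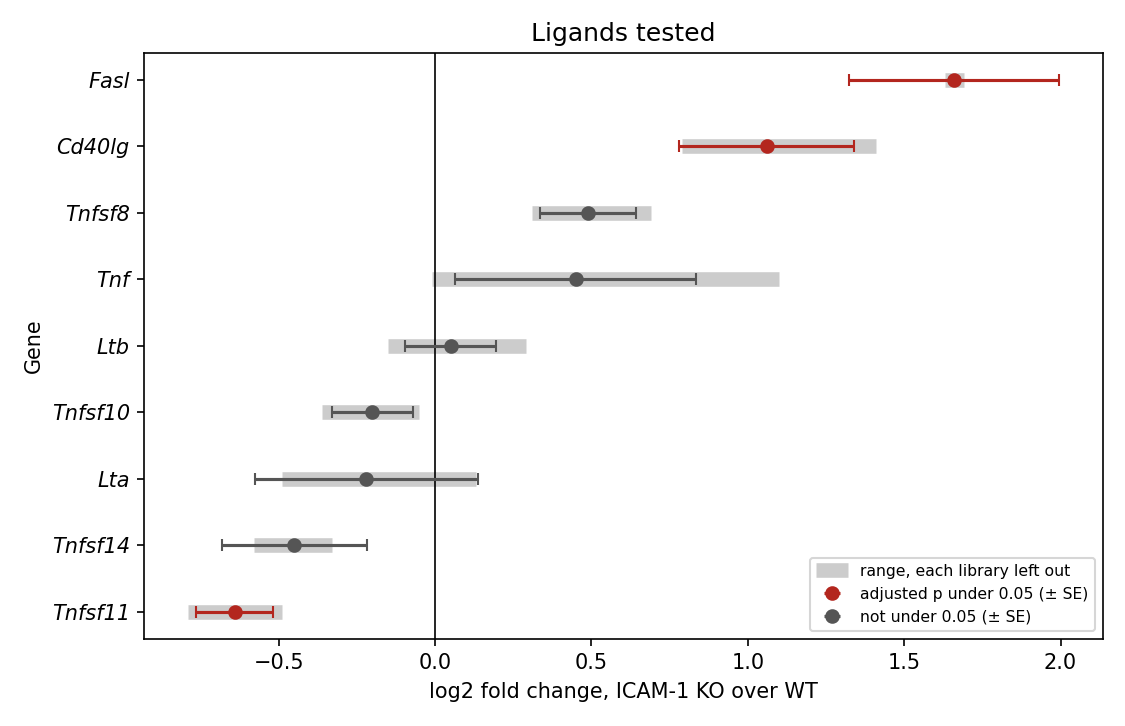
Log2 fold change (KO-labelled libraries over WT) of the 9 ligands tested, as points with standard errors, red where the adjusted p was under 0.05. Grey bars span the values with each library left out in turn. They stay above 0 for Fasl (1.63 to 1.69), Cd40lg (0.79 to 1.41) and Tnfsf8 (0.31 to 0.69). They stay below 0 for Tnfsf11 (-0.79 to -0.49), Tnfsf14 (-0.58 to -0.33) and Tnfsf10 (-0.36 to -0.05). The bars of Tnf, Lta and Ltb cross 0.

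Other ligands of the family formed a list of 8 genes, of which 2 were tested. Neither passed with edgeR, DESeq2 or limma, and 0 had an unadjusted p under 0.05. For all genes tested, the edgeR shares were 8.8% higher and 4.97% lower. Tnfsf4, which encodes OX40L, had 2465 and 3129 counts in WT against 2304 and 2114 in the KO-labelled libraries (log2 fold change -0.27, SE 0.132, adjusted p = 0.21). Tnfsf9, which encodes 4-1BBL, had 243 and 321 against 241 and 255 (log2 fold change -0.12, adjusted p = 0.812). Tnfsf4 ranged from -0.4 to -0.12 and Tnfsf9 from -0.28 to 0.07 when single libraries were left out. Per kb, Tnfsf4 stood at 49.0 normalized counts in WT and 40.0 in the KO-labelled libraries, close to Tnfsf11 in WT. The 6 others were rare. Cd70, the CD27 ligand gene, had 80 and 107 counts in WT against 28 and 60 in the KO-labelled libraries, and Tnfsf18, the GITR ligand gene, had 1 to 8 counts.

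Of 15 receptors for the 10 ligands, 12 were tested. With edgeR, 4 of them were higher in the KO-labelled libraries and none was lower, beside 8.8% and 4.97% of all genes tested. Their median log2 fold change was 0.65, and that of all genes tested was 0.01. At an unadjusted p under 0.05 there was 1 lower, Tnfrsf8, which DESeq2 also called and limma did not. DESeq2 called 5 higher and limma 4. Tnfrsf13c had 272 and 210 counts in WT against 365 and 494 in the KO-labelled libraries (log2 fold change 0.9, SE 0.268). It did not pass with edgeR (adjusted p = 0.057) and passed with DESeq2 (0.0275). Both TNF receptors rose. Tnfrsf1a, the receptor with a death domain, went from 261 counts in each WT library to 547 and 602 counts (log2 fold change 1.2, SE 0.218, adjusted p = 0.00989). Tnfrsf1b, the receptor typical of lymphocytes, went from 4952 and 5706 counts to 8258 and 9278 counts (log2 fold change 0.79, SE 0.0911, adjusted p = 0.00148). These calls held in all 11 other fits tried.

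Ltbr, the lymphotoxin beta receptor of stromal and myeloid cells, had 54 and 73 counts in WT against 194 and 170 in the KO-labelled libraries (log2 fold change 1.59, SE 0.385, adjusted p = 0.0294). Tnfrsf13b, which encodes the BAFF receptor TACI of B cells, had 758 and 722 counts against 1024 and 1261 (log2 fold change 0.69, SE 0.157, adjusted p = 0.0229). Both calls were lost when some of the libraries were left out: the adjusted p of Ltbr was 0.114 without WT replicate 1, 0.0817 without WT replicate 2 and 0.0876 without ICAM-1 KO replicate 1, and that of Tnfrsf13b was 0.0646 and 0.0956 without the WT libraries and 0.101 without ICAM-1 KO replicate 2. Without a filter on low counts they were 0.0808 and 0.0841. B cell markers had a summed normalized count of 166 and 151 in WT and 313 and 256 in the KO-labelled libraries. Of these markers, 4 of 6 were higher, beside 8.8% of all genes tested. Endothelial markers, all 6 of them higher, had 87.7 and 96.2 against 268 and 271. The part of these cells in the levels of Tnfrsf13b, Ltbr and Tnfrsf1a was not tested.

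The receptors of the called ligands did not pass the test. Fas had 634 and 774 counts in WT against 775 and 985 in the KO-labelled libraries (log2 fold change 0.39, adjusted p = 0.177), Cd40 had 97 and 73 against 144 and 134 (0.78, adjusted p = 0.209), and Tnfrsf11a, the RANK gene, had 1099 and 867 against 889 and 741 (-0.2, adjusted p = 0.532). Tnfrsf8, which encodes CD30, lay opposite in sign to its ligand gene Tnfsf8, with 2175 and 3349 counts in WT against 1758 and 1712 in the KO-labelled libraries. Its log2 fold change was -0.6 (SE 0.174, adjusted p = 0.0523). WT replicate 2 was the high library: the log2 fold change was -0.29 without it (adjusted p = 0.244), and -0.85 without WT replicate 1 (0.0164). The adjusted p was 0.0198 without ICAM-1 KO replicate 1, 0.0672 without ICAM-1 KO replicate 2 and 0.0485 with genes of at least 10 counts in every library. Tnfrsf11b, the decoy receptor of RANKL, had at most 24 counts and was not tested.

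**Figure D5:**
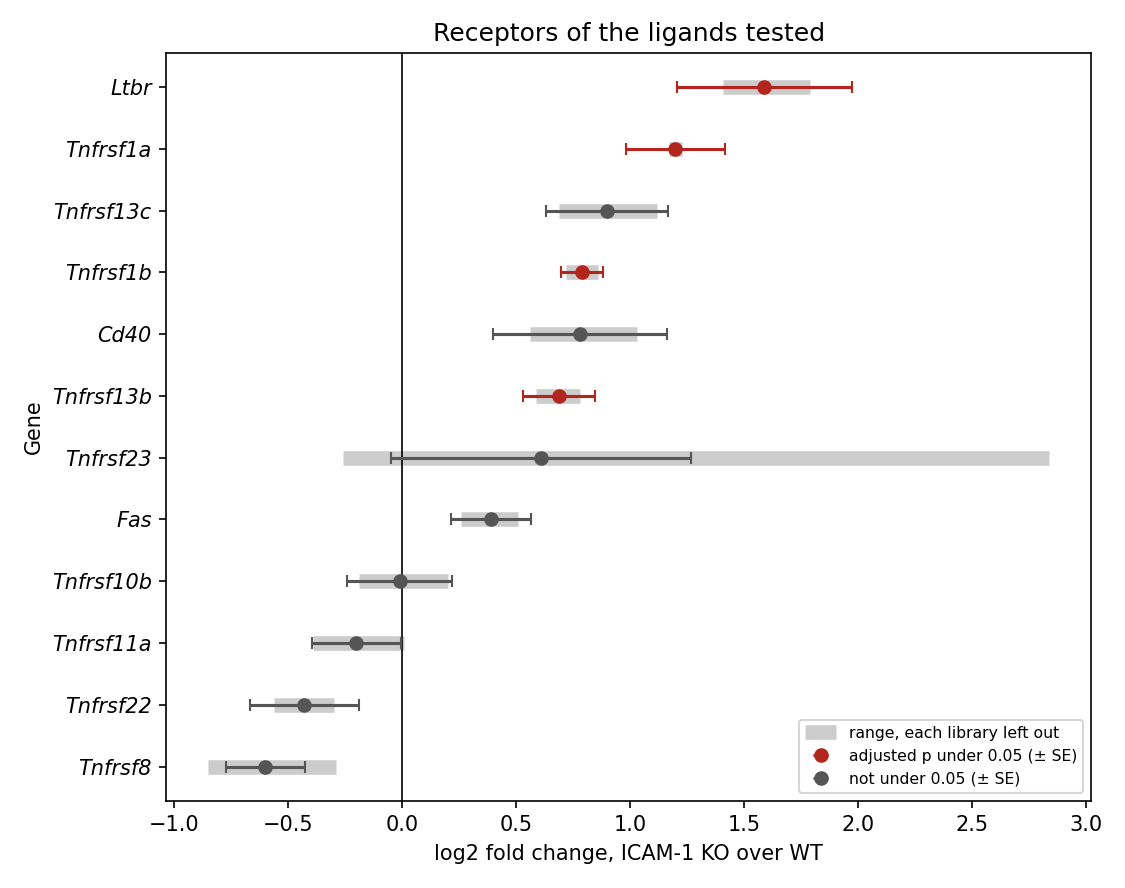
Log2 fold change (KO-labelled libraries over WT) of the 12 receptors tested, with standard errors, red where the adjusted p was under 0.05, and grey bars for the range with each library left out in turn. Ltbr, Tnfrsf1a, Tnfrsf1b and Tnfrsf13b lie above 0 at 1.59, 1.2, 0.79 and 0.69, and Tnfrsf8 is the lowest at -0.6.

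Inside the cell, 20 genes of receptor signalling were tested. With edgeR, 2 of them were higher and 0 lower, beside 8.8% and 4.97% of all genes tested. The number lower was also 0 at an unadjusted p under 0.05 and by DESeq2 or limma. Their median log2 fold change was 0.08. Birc2, which encodes the ubiquitin ligase cIAP1, had 1273 and 1553 counts in WT against 2403 and 2311 in the KO-labelled libraries (log2 fold change 0.81, SE 0.128, adjusted p = 0.00584). Cyld, a deubiquitinase that restrains NF-kappaB, had 2936 and 2887 against 3837 and 3621 (log2 fold change 0.43, SE 0.106, adjusted p = 0.0319). The adjusted p of Cyld was 0.0797 and 0.129 without the WT libraries, 0.157 without ICAM-1 KO replicate 1 and 0.128 without a filter on low counts. Traf6 followed and did not pass (log2 fold change 0.4, adjusted p = 0.0926). The abundant feedback inhibitors Tnfaip3, with 35065 to 40290 counts, and Nfkbia, with 27961 to 42429 counts, had log2 fold changes of -0.05 and -0.22 (adjusted p = 0.702 and 0.281). They were named after their values were seen.

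A list of 8 genes was drawn up as regulators of the TNF message and of TNF shedding, and all 8 were tested. Of these, 0 passed with edgeR, DESeq2 or limma, and 1 had an unadjusted p under 0.05 (Adam10). Among all genes tested, edgeR called 8.8% higher and 4.97% lower. The median log2 fold change of the 8 genes was -0.03. The smallest adjusted p was that of Adam10, a sheddase (log2 fold change 0.34, adjusted p = 0.0838). Its log2 fold change was 0.49 without ICAM-1 KO replicate 2 (adjusted p = 0.0203) and 0.18 without ICAM-1 KO replicate 1 (0.474). Zfp36 encodes tristetraprolin, which destabilizes Tnf mRNA, and had 7054 and 4153 counts in WT against 6062 and 8302 in the KO-labelled libraries (0.41, adjusted p = 0.258). Its lowest library was WT replicate 2, the same as for Tnf, and its log2 fold change was 0.88 without WT replicate 1 (adjusted p = 0.0284), 0.58 without ICAM-1 KO replicate 1 (0.0407) and 0.06 without WT replicate 2. Elavl1, which encodes an RNA-binding protein that stabilizes such messages, had a log2 fold change of -0.14 (adjusted p = 0.293).

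The pattern of Ltb over the 4 libraries was compared with 8918 genes averaging 10 or more normalized counts. The closest were Irf2bp2, Pepd and Sbf2, with root mean square differences of 0.0123, 0.0165 and 0.0218 in log2 normalized count after centring. With 4 libraries and this many genes, such closeness is a description only.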

How the data were processed

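RNA of sorted lung ILC2s was sequenced in 2 WT and 2 ICAM-1 KO libraries, grouped by their titles. Per the study's methods, cDNA was made with the SMARTer low-input kit, and STAR aligned the reads to mm10, and Partek counted them on GENCODE M20 genes. The authors deposited expected counts, which are not normalized (61.1% of values lie within 0.01 of a whole number, as estimated counts from Partek's E/M step need not be whole), and a normalized signal per gene, made by upper quartile scaling of the count plus 1. Whether the counting used strand is not given in the sources used here, and a gene on the other strand, Gm44789, overlaps Tnfsf13b, while Mir6974 and Mir6973a lie within Lta and Ltb. The files give each gene's end 1 base past that of GENCODE M21, whose ends and merged exon lengths were used.

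Counts were rounded and tested with edgeR 4.0.16 (upper quartile factors, glmQLFit with legacy set to FALSE, glmQLFTest, two-sided) in R 4.3.3, and p-values were adjusted by Benjamini-Hochberg over all genes tested. A standard error is the log2 fold change over the root of its F statistic. The alternatives were TMM factors, edgeR's older test (legacy set to TRUE), DESeq2 1.42.0, limma 3.58.1 on log2 normalized counts plus 1, other filters, a replicate block, a 2-fold limit and leaving out each library, where the lone library of a group is assumed to vary like the others. The tests were tried on simulated counts. Each library is a separate pool of 4 mice. The tests set the difference between labels against the spread between pools, 2 per group, and not between single mice. That spread was estimated partly from the other genes tested. The members and gene lists were chosen with earlier results of these data known. All 10 ligands and the other ligands and receptors may be named, with Icam1, the signalling and TNF message genes of smallest adjusted p (3 per list) and the defining markers.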

Additional observations from a re-analysis of the deposited data

How the results depend on the processing

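Of 99 values of the 9 ligands tested under 11 alternatives, 83 kept their direction and side of the threshold, 9 lost the call (5 of Cd40lg, 2 of Fasl, 2 of Tnfsf11), 3 gained it (Tnfsf8) and 4 changed sign, none of them called. The ligands called higher were 2 in the reported test, 1 with edgeR's older test, 1 without a filter on low counts and 0 to 2 with each library left out. The ligand called lower was lost without a filter on low counts (0), with a 2-fold limit (0) and in the leave-one-out range of 0 to 1. Over all genes, 1030 were higher and 582 lower in the reported test, 334 and 201 without a filter (22158 genes tested), 578 and 63 with a 2-fold limit, and 479 to 948 and 158 to 388 with each library left out. DESeq2 called 930 lower. Leaving out a library lowers the number of samples behind each test, and dropping the filter raises the number of genes adjusted over. The edgeR and DESeq2 fits also estimated the spread anew from their own genes and libraries. Why the calls moved was not tested.

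Leave-one-out log2 fold changes were -0.01 to 1.1 for Tnf, -0.49 to 0.13 for Lta, -0.15 to 0.29 for Ltb, -0.19 to 0.2 for Tnfrsf10b, -0.26 to 2.84 for Tnfrsf23, -0.28 to 0.07 for Tnfsf9 and -0.39 to 0.01 for Tnfrsf11a. Without a filter on low counts, Tnfsf13b stood at -0.24 in log2 units (edgeR adjusted p = 0.844). With the replicate number as a block, 1077 genes were higher and 638 lower, and the ligands called were Fasl, Cd40lg, Tnfsf8 (adjusted p = 0.0409) and Tnfsf11. The block also called the receptor gene Tnfrsf8 (0.0439). The replicate 1 minus replicate 2 differences correlated at -0.058 across genes between the labels. The labels do not say whether same-numbered pools were handled together. A correlation over all genes cannot decide it, since shared handling could affect only some genes. The depth limits Fasl, Lta, Tnf and Tnfsf13b most, whose lowest counts were 79, 126, 103 and 28.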
